A study of Mus musculus with 2 samples.

Results

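The genes described here are the processed pseudogenes of the mouse genome that held long RNA reads in muscle. They were chosen as the genes that GENCODE M21 types as processed_pseudogene or transcribed_processed_pseudogene and that had at least 1 count in either library. This gave 600 of 10233 annotated genes of these types, after 4 genes of the same types were left out by the selection. The samples were gastrocnemius muscles, the large calf muscle, of 4-day-old male B6CASTF1/J mice, an F1 hybrid strain of C57BL/6J and CAST/EiJ background. There was 1 group of 2 biological replicates with 1 long-read library each, made from 2 µg of total RNA, and no treatment or second genotype. The replicates have separate biosample entries under 1 shared donor entry, so the labels do not settle whether they are 2 mice, and their spread may in part be technical. Reads of the CAST/EiJ allele can differ from the mm10 reference, which is a C57BL/6J genome; the part of this in the values below was not tested.

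A processed pseudogene arises when a spliced messenger RNA is reverse transcribed and the DNA copy is inserted elsewhere in the genome. The copy therefore lacks the introns of the gene it came from, called the parent here, and usually its promoter. Many copies gather mutations and make no protein, some are transcribed from sequences near the insertion site, and a few, called retrogenes, keep a working reading frame. Genes for ribosomal proteins, glycolytic enzymes and cyclophilins, whose messengers are abundant in most cells, have many such copies. A young copy differs from its parent at few bases, so a read of either can be assigned to the other.

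Each copy was aligned with the M21 transcripts of protein-coding genes, and the parent is the gene with the best match that covered at least 50% of the copy. The stretches below, from the GENCODE M21 transcript sequences on mm10, show how few letters separate leading copies from their parents. The diverged copy Rps4l is added for contrast. Each stretch is 90 bases of coding sequence, read 5′ to 3′ on the sense strand. It spans a joint between 2 exons of the parent, where the parent gene has an intron and the copy has none. Of the ungapped stretches around such joints, the one with the most differences was taken, the outermost bases aside. Capitals mark the bases that differ between the members of a pair. The order is a copy, then its parent, for chr9:96895682-96895771 (Gm10123, + strand), chr5:5783100-5783189 (Gm15459, - strand), chr12:110898425-110898514 (Rps19-ps6, + strand), chrX:104346691-104346780 (Vcp-rs, - strand) and chr6:148354740-148354829 (Rps4l, + strand).
Gm10123: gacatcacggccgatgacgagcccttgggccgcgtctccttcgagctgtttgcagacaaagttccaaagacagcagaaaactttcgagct
Ppia: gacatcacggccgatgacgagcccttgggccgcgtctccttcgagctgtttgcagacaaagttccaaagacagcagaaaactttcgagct
Gm15459: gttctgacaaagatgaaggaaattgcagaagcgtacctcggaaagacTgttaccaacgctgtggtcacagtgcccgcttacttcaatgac
Hspa8: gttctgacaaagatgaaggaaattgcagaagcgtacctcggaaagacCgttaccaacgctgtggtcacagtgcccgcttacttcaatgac
Rps19-ps6: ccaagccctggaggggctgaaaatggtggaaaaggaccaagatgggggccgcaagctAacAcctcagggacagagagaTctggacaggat
Rps19: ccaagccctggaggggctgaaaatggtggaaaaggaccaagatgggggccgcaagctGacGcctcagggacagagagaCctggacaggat
Vcp-rs: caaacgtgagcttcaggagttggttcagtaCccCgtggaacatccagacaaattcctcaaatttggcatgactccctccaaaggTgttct
Vcp: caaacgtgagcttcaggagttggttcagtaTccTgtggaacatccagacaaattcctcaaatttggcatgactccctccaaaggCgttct
Rps4l: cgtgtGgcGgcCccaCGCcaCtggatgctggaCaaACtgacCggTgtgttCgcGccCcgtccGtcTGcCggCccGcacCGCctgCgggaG
Rps4x: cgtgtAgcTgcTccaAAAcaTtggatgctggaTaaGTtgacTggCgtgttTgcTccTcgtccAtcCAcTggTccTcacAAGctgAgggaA

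The Ppia stretch joins exons 1 and 2, which lie 2121 bases apart in the gene on chromosome 11, and the copy Gm10123 matched all 490 of its annotated bases to the spliced transcript. The copy of Hspa8, Gm15459, differed from it at 5 of 1941 aligned bases and ran without a gap through 7 of the parent's 8 exon joints. Rps19-ps6 differed at 5 of 438 bases. Vcp-rs differed at 8 of 2406 aligned bases, with 1 gap, and ran through all 16 joints of a parent with 17 exons. Rps4l was the most diverged copy with at least 20 counts and differed from Rps4x at 154 of 829 aligned bases, with 12 gaps. Its stretch differed at 26 of 90 bases, and its GC content there was 73.3% against 52.2% in the parent.

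The members held 7620 counts in replicate 1 and 9788 in replicate 2, of 998659 and 1026257 counts on annotated mouse genes. Their share was 0.763% (exact Clopper-Pearson 95% interval 0.746 to 0.780%) and 0.954% (0.935 to 0.973%), a mean of 0.858 ± 0.135% (SD, n = 2). These intervals cover counting error only. The tissue label was borne out by skeletal muscle genes: Acta1, the actin of the thin filament, held 51040 and 65561 counts and Ckm, the muscle creatine kinase, 23582 and 28379. Of the 600 members, 424 had reads in replicate 1, 476 in replicate 2 and 300 in both. A single read carried 246 members, 205 had 2 to 9 counts in sum, 149 had at least 10 and 40 had at least 100. The 300 members seen in 1 library only reached at most 8 counts in replicate 1 and 9 in replicate 2. Levels are given as CPM, counts per 1000000 counts on annotated mouse genes. A count of 0 allows up to 3.00 CPM in replicate 1 and 2.92 CPM in replicate 2, so absence from a library was not resolved below that level. The counts were concentrated: the 15 highest members took 52.2% and 50.3% of all member counts.

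The share of copies that held reads rose with identity to the parent. Of the 600 members, 586 had a parent, from 363 different genes. The median identity was 98.8% in members and 88.2% in the 9633 annotated copies without a count. Under 80% identity, 40 of 2256 copies (1.77%) held at least 1 count, and between 90 and 95%, 57 of 2069 (2.76%). The share was 5.99% between 95 and 98%, 17.9% (79 of 442) between 98 and 99%, 36.4% (87 of 239) between 99 and 99.5%, and 51.6% (177 of 343, interval 46.2 to 57.0%) at 99.5% and above. The last class held 5678 and 7356 counts, 74.5% and 75.2% of all counts on members, and the 2256 copies under 80% held 55 and 54. Whether a read on a near-identical copy came from the copy or from its parent was not tested, since reads and alignments were not used here.

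**Figure D1:**
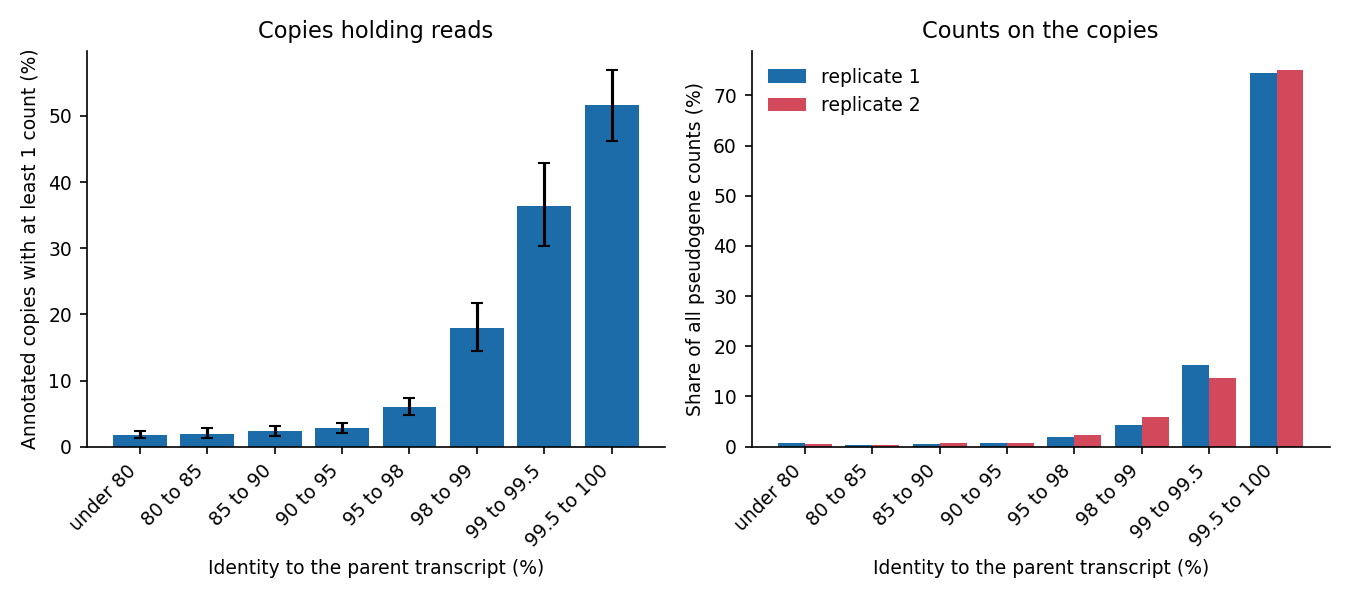
Left, the share of annotated processed pseudogenes with at least 1 count in either library (vertical axis, percent, with exact 95% binomial intervals) in classes of identity to the parent transcript (horizontal axis, percent); right, the share of all counts on members in each class for both replicates (bars). The share of copies with reads stays under 3% up to 95% identity and reaches 51.6% in the last class, which holds 74.5% and 75.2% of the counts.

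The level of the parent went with detection among the near-identical copies, and no such rise was seen among the diverged ones. At 99% identity and above, 7 of 65 copies (10.8%) held reads where the parent had under 10 counts in sum over both libraries. This share was 36% (63 of 175) for parents with at least 10 but under 100 counts, 53.7% (138 of 257) for at least 100 but under 500 and 65.9% (56 of 85) for 500 and over. The same classes gave 5.31%, 6.29%, 10.7% and 12.3% at 95 to 99% identity. Under 90% identity they gave 1.25%, 2.20%, 2.24% and 1.74%. These shares describe the annotated copies, which share parents and libraries, and carry no test.

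The longest stop-free run of codons on the sense strand was set against the coding length of the parent. It reached at least 90% of that length in 305 of the 600 members, 50 to 90% in 171 and less in 110, and the other 14 had no matched parent. Among copies of at least 99% identity, 215 of 370 (58.1%) with a run of at least 90% of the parent's coding length held reads, 35 of 82 (42.7%) with 50 to 90%, and 14 of 130 (10.8%) with less. The first of these classes held 6757 and 8482 counts, 88.7% and 86.7% of all member counts. Gm15459, Rpl3-ps1, Gm8172, Rps2-ps13, Rps19-ps6 and Gm12338 kept 100% of the parent's coding length free of stops, and Gm10123 kept 99.4%. A short copy has a short run, so this measure holds both truncation and stop codons.

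Members were sorted by what their parents do. Copies of cytosolic ribosomal protein genes, whose products build both subunits of the ribosome, were the largest group, with 213 members of 2476 annotated copies (8.60%) and 2961 and 4372 counts. Copies of chaperones, which assist protein folding, and of cyclophilins held 1786 and 2000 counts on 11 members of 217 (5.07%). Most of these counts lay on Gm15459 (1290 and 1236) and Gm10123 (416 and 654). Copies from the respiratory chain and ATP synthase held 541 and 833 counts on 20 members of 263 (7.60%). Those of glycolysis held 274 and 239 on 26 of 340 (7.65%). The remaining families were small: RNA binding and splicing (149 and 232 counts, 24 members), translation factors (130 and 123, 11 members), histones and chromatin (101 and 176, 20 members), other mitochondrial genes (76 and 81, 19 members), proteasome and ubiquitin (39 and 59, 16 members) and cytoskeleton (37 and 66, 9 members). Parents outside these families gave 211 members with 1467 and 1531 counts. Contractile muscle genes, among the most abundant messengers of the tissue, had only 30 annotated copies: 6 held reads, with 9 and 15 counts in all. Their share with reads, 20.0% (exact interval 7.71 to 38.6%), was the highest of the families, against 5.86% over all annotated copies. With so few copies the interval is wide and includes the 8.60% of the ribosomal copies. The highest contractile member, Mylf-ps, had 4 and 6 counts beside 6319 and 8869 on its parent. It is a copy of the fast myosin light chain gene Myl1 and was chosen after its values were seen.

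The leading member was Gm15459, a 99.7% identical copy of Hspa8, the constitutive cytosolic chaperone of the Hsp70 family. It lies on chromosome 5 from 5781615 to 5783555 and held 1290 counts in replicate 1 and 1236 in replicate 2, or 1248 ± 61.8 CPM (SD, n = 2). Its parent held 1364 and 1432 counts, so the copy had 48.6% and 46.3% of the counts of the pair. Gm10123, the identical copy of Ppia (cyclophilin A, a proline isomerase), held 416 and 654 counts against 469 and 702 on Ppia. Both copies thus stood near the level of a highly expressed parent, and both libraries gave nearly the same division between copy and parent.

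Among the copies of ribosomal protein genes, Rpl3-ps1 held 297 and 540 counts beside 685 and 1110 on Rpl3, and Gm15500, identical to Rpl5 over 99.9% of its length, 203 and 350 beside 322 and 537. Gm8172 (99.2% identical to Rps6) had 211 and 321 counts, Rps2-ps13 170 and 255, and Rps19-ps6 141 and 282. Gm14303, an identical copy of the short Rps29 messenger, held 134 and 173. All of these had more counts in replicate 2. Some copies held more counts than their parents in both libraries: Gm10243 had 103 and 132 counts where Rpl35a had 39 and 31, and Rpl37rt had 117 and 136 where Rpl37 had 76 and 118. Other examples, named after their values were seen, were Rpl21-ps15 with 103 and 124 counts beside 17 and 16 on Rpl21, and Rpl17-ps5 with 51 and 84 beside 8 and 10 on Rpl17.

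Of the copies of mitochondrial genes, Gm12338 matched all 192 of its bases to Cox7c, a small subunit of cytochrome c oxidase, and held 155 and 208 counts beside 322 and 387. Gm10231, identical to Atp5g2, which encodes the membrane ring subunit of ATP synthase, held 106 and 147 beside 135 and 144. Gm10698, identical to the vesicle transport gene Tmed2, held 192 and 246 beside 502 and 519. Vcp-rs, the copy of the ATPase Vcp that unfolds ubiquitin-tagged proteins, held 270 and 75 beside 832 and 613. It was the only one of the 15 highest members with over 3 times as many counts in 1 library as in the other. A model that adjoins Vcp-rs, described below, held 0 and 114. Gapdh, the glycolytic enzyme, had 21 members among the copies analysed here, with 257 and 225 counts in sum against 56 and 51 on Gapdh itself. One copy, Gm13394 (99.9% identical, on chromosome 2 from 28933610 to 28934609), held 174 and 164 of these.

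**Figure D2:**
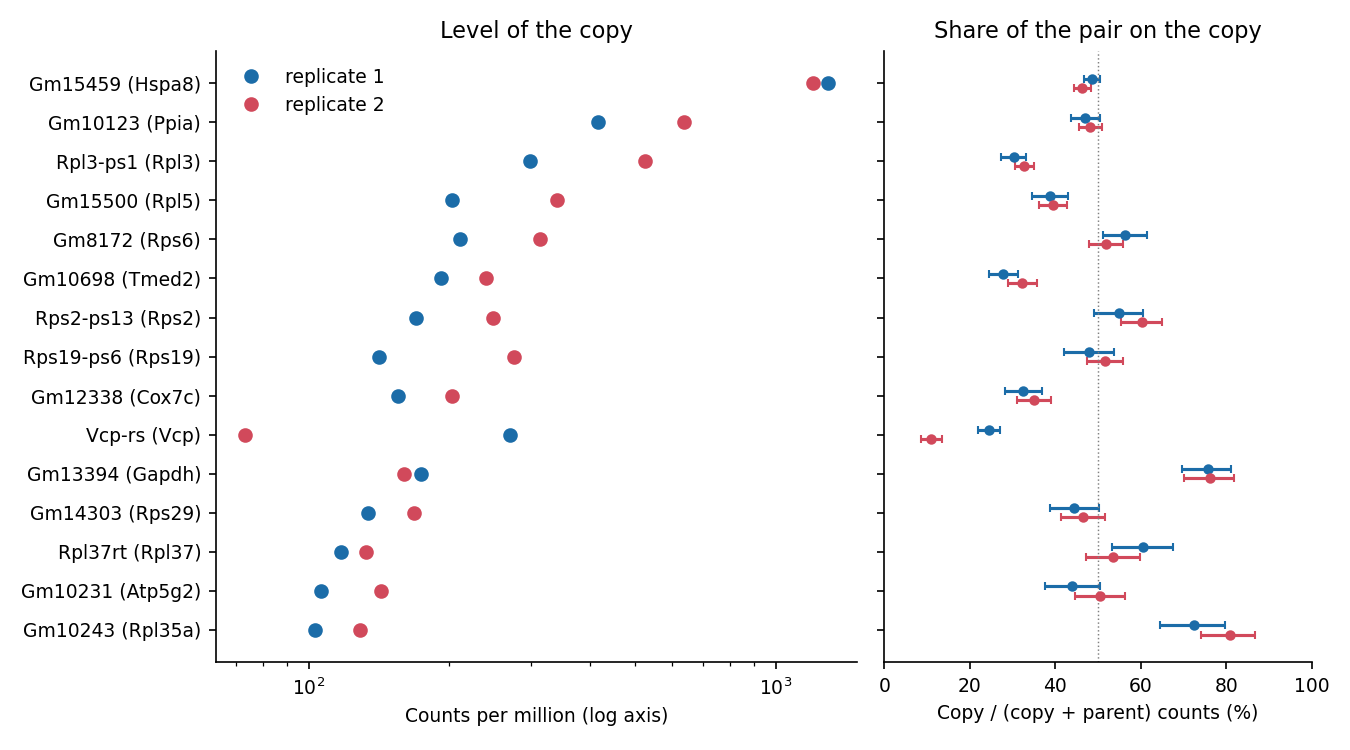
The 15 members with the highest mean level, with the parent in brackets. Left, CPM in each replicate on a log axis; right, the share of the counts of the pair that lies on the copy (percent, points, with exact 95% intervals; the dotted line is at 50%). Gm15459 stands highest near 1248 CPM, and Vcp-rs is the only copy whose shares, 24.5% and 10.9%, stand apart with intervals that do not overlap. Only counts under the identifier of the copy are shown, and a model that adjoins Vcp-rs held 0 and 114 counts.

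The division of counts between copy and parent was similar in both libraries for most of the members compared. For the 147 matched members with at least 10 counts in sum, the median share of the pair on the copy was 19.4% in replicate 1 and 19.2% in replicate 2, and the median difference between the libraries was 2.97 percentage points. The difference was at most 10 percentage points for 136 of the 147. The exact intervals of both libraries overlapped for 143 of the 147. The exceptions were Vcp-rs, Gm6969, Gm15387 and Gm12481. These shares use counts under the identifier of the copy only. Models that adjoin the copy, described below, held 0 and 114 counts for Vcp-rs, 70 and 0 for Gm6969 and 29 and 0 for Gm15387. Copies with few counts have wide intervals, so overlap there does not show an equal division. The intervals of the copy of Bmp2k, for example, overlapped at shares of 43.3% and 10.5%. The copy held more counts than the parent in both libraries for 13 of the 147, and fewer in both for 126. Of the 147, 136 were at least 98% identical to the parent, 44 were 100% identical and 6 were under 95%.

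By parent, most counts lay on copies of Hspa8 (2 members, 1290 and 1237 counts), Ppia (2 members, 416 and 655), Rpl3 (3 members, 298 and 541), Rps6 (6 members, 238 and 348) and Rpl5 (1 member). The parents with most members were Gapdh (21 members of 229 annotated copies), Rps2 (15 of 143), Rpl35a (13 of 55), Rpl7a (9 of 185) and Hmgb1 (9 of 157). Among these parents with most members, the counts broadly fell with the number of members. The members from Gapdh held 257 and 225 counts in all, those from Rps2 197 and 287 and those from Rpl35a 142 and 175. The 9 members from Rpl7a held 39 and 35 and the 9 from Hmgb1, which encodes a chromatin protein, 16 and 55. Across both lists counts did not follow number: the 2 members from Hspa8 held more counts than the 21 from Gapdh.

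By location, 328 members were intergenic, 195 lay antisense to another gene, 61 in an intron of a gene on the same strand and 16 overlapped an exon of such a gene. The intergenic members were 4.49% of the 7305 annotated there and held 3830 and 5346 counts. The antisense members were 11.1% of 1758 (2673 and 3210 counts), the intronic ones 5.92% of 1030 (994 and 1053), and those in exons 11.4% of 140 (123 and 179). Gm15459 alone held 1290 and 1236 of the antisense counts, and its opposite neighbour, the lincRNA Gm26825, had no count. The higher detection antisense to genes was clearest among diverged copies. Under 90% identity, 64 of 899 antisense copies (7.12%, interval 5.53 to 9.0%) held reads, against 40 of 3991 intergenic (1.00%, 0.717 to 1.36%) and 5 of 510 intronic copies (0.980%, 0.319 to 2.27%). It was seen in each library alone, with 40 and 43 antisense copies against 25 and 28 intergenic ones. At 99% identity and above the shares were 53.8% antisense, 43.8% intergenic and 46.1% intronic, with intervals that overlapped.

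**Figure D3:**
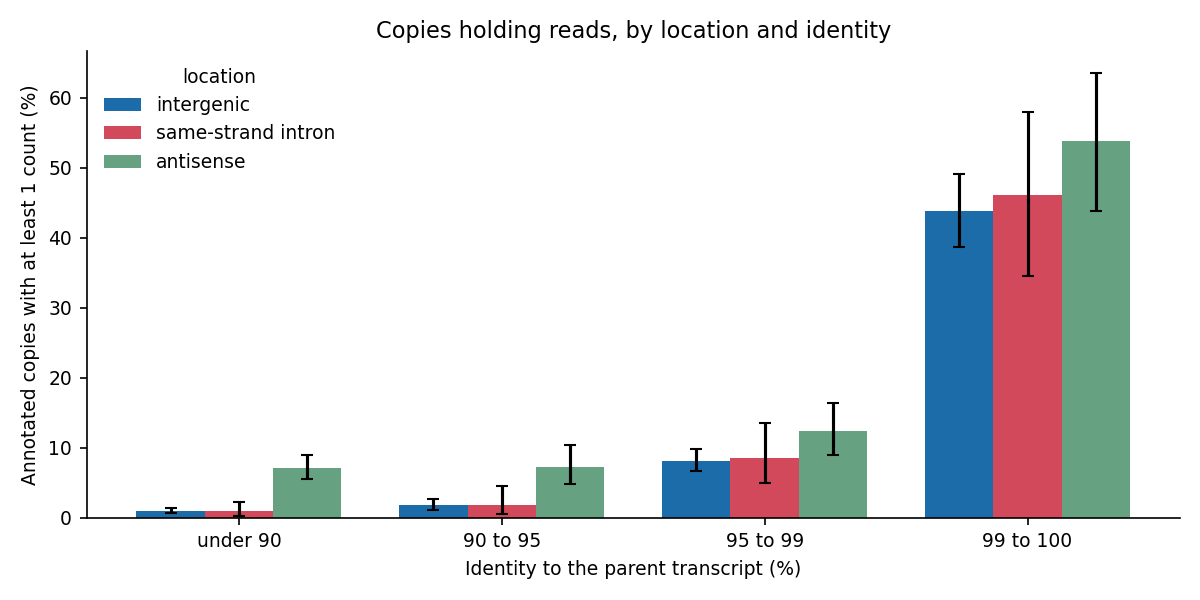
Share of annotated copies with at least 1 count (vertical axis, percent, with exact 95% intervals) by identity to the parent (horizontal axis, percent) for intergenic, same-strand intronic and antisense copies. Antisense copies stand above the others in the classes under 95% identity, and the intervals of all locations overlap at 99 to 100%.

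The level of the opposite gene moved with this. Among antisense copies under 95% identity, 23 of 720 (3.19%, interval 2.04 to 4.75%) held reads where the opposite gene had under 10 counts in sum, 52 of 421 (12.4%, 9.36 to 15.9%) where it had 10 to 99, and 16 of 128 (12.5%, 7.32 to 19.5%) where it had 100 or more. In introns of the same strand the corresponding counts were 5 of 457, 1 of 212 and 3 of 63. Antisense members whose body overlapped an opposite exon were 43 of 229 annotated (18.8%, 13.9 to 24.4%), and those within an opposite intron 152 of 1529 (9.94%, 8.49 to 11.6%). How strand was assigned to reads is not given in the sources used here, and its part in these shares was not tested.

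The highest intergenic members were Gm10123, Rpl3-ps1 and Gm15500, and the highest antisense ones Gm15459, Gm8172 (opposite Aff2, which had 1 count) and Gm12338 (in Pitpna, with 164 and 5 counts). In introns of the same strand they were Rps19-ps6 in Tecpr2, with 2 and 1 counts on the host, Vcp-rs, and Gm13394 in Cfap77, with none. The 3 members that led the exon group were Rpl19-ps11 (57 and 73 counts), Gm10774, a copy of the RNA polymerase subunit gene Polr2l in Usp50 (28 and 53), and Gm7666, a copy of the prohibitin gene Phb in Fyb (10 and 22).

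By annotated structure, 549 members had single-exon models only and 51 had a model with more exons. These were 6.01% of 9132 and 4.63% of 1101 annotated copies. Single-exon members held 7273 and 9418 counts, multi-exon members 347 and 370. Even in the multi-exon members most counts lay on single-exon models. Only 63 and 66 of their counts lay on models with more than 1 exon, in 29 of the 51. Over all members, 97.99% and 98.27% of counts lay on single-exon models, against 4.84% and 5.47% for protein-coding genes and 17.2% and 19.0% for lincRNAs. A copy lacks its parent's introns, so a read of the spliced parent filed on the copy would also lie on a single-exon model. Whether the reads had been spliced was not tested. Known models, those of the annotation, took 98.1% and 98.5% of member counts, against 72.4% and 75.4% in protein-coding genes. A Known single-exon model carries the annotated ends, so the extent of its reads is not recorded.

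The 5 leading multi-exon members were Rpl37rt, Gm15501, Ppp1ccb, 2810025M15Rik and Gm10275. Rpl37rt held 117 and 136 counts, 0 and 2 of them on models with more than 1 exon. Gm15501 held 53 and 79 (0 and 1 on such models) and Ppp1ccb 67 and 41 (10 and 10). All 18 and 29 counts of 2810025M15Rik lay on such models, and none of the 19 and 21 of Gm10275. Ppp1ccb is an intact copy of Ppp1cc, a catalytic subunit of protein phosphatase 1, identical to it over the whole aligned length. RefSeq (GRCm38.p6) types Rpl37rt, Gm15501 and Ppp1ccb as protein-coding genes and 2810025M15Rik as a lncRNA. Over all members, RefSeq gave 423 as pseudogenes, 47 as transcribed pseudogenes, 13 as protein-coding and 3 as lncRNAs, and 114 had no entry. Reads were found on 24.7% of the 190 annotated copies that RefSeq calls transcribed pseudogenes, on 14.4% of its 90 protein-coding ones and on 7.03% of its 6017 pseudogenes. In GENCODE, 61 of 296 copies typed as transcribed (20.6%) and 539 of 9937 others (5.42%) were members.

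Diverged copies with more than a few reads were rare, and these members are the ones whose sequence is least like that of the parent. The lowest identities among members with at least 20 counts were those of Rps4l (79.7%), Gm7805 (88.3%, a copy of the mitochondrial ribosomal protein gene Mrpl20), Gm7389 (95.6%, of the tRNA export receptor Xpot), Gm6969 (97.2%, of Cox7a2l) and Gm11847 (98.1%, of the RNA-binding protein gene Hnrnpa3). Rps4l, a copy of the ribosomal protein gene Rps4x, held 14 and 20 counts beside 395 and 660 on its parent and kept a stop-free run longer than the parent's coding sequence. It lies antisense to Tmtc1, which had 20 and 13 counts. Gm7805 held 10 and 15 counts, antisense to Zfp943 with 12 and 14. Gm7389 held 42 and 33, more than the 26 and 14 of Xpot, although its longest stop-free run was 35.9% of the parent's coding length.

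For 14 members there was no protein-coding match over at least 50% of their length, with 50 and 61 counts in all. The leading ones were 2810025M15Rik, Magef1 (20 and 12 counts), 4930431P19Rik (3 and 6), Gm12439 (4 and 2) and Gm47844 (0 and 5). Magef1, of the MAGE family, is typed by RefSeq as a transcribed pseudogene. Gm47844 and 4930431P19Rik lie antisense to well expressed genes, Trdn with 471 and 567 counts and Tmem9b with 62 and 73.

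Replicate 2 was set against replicate 1 for each of the 11027 annotated genes that reached 10 counts in sum. The test was Fisher's exact test, two-sided, with p adjusted by Benjamini and Hochberg over all these genes and a threshold of 0.05; it sees counting error only and says nothing of a condition. It called 9.74% of all genes, 5.25% higher in replicate 2 and 4.49% lower. Of the 149 members tested, 17 were called (11.4%), 14 of them higher in replicate 2 and 3 lower, or 9.40% and 2.01%. The share called was near that of all genes. The median log2 ratio, replicate 2 over replicate 1, was 0.45 over the tested members and -0.04 over all genes; over the 116 parents of tested members it was 0.30. At a preset biological coefficient of variation of 0.2, edgeR's exact test called 2 members, Gm6969 and Vcp-rs, and 0.508% of all genes.

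Called members with large ratios in favour of replicate 2 included Gm6969, Gm15387, Gm12481 and Gm6136. Gm6969 held 10 and 97 counts (log2 ratio 3.18, adjusted Fisher's exact p = 2.35e-16) and Gm15387, a 99.8% identical copy of Hmgb1, 10 and 47 (2.14, adjusted Fisher's exact p = 3.75e-05). Gm12481, from Serf2, held 37 and 77 counts, and Gm6136, from the ribosomal protein gene Rpl6, 30 and 62. Their log2 ratios were 1.01 and 1.00. In the other direction, Vcp-rs held 270 and 75 counts (log2 ratio -1.88, adjusted Fisher's exact p = 8.24e-26) and Gm13292, a copy of Gapdh, 24 and 6 (-1.95, adjusted Fisher's exact p = 0.0125). The third, AC169509.1 (13 and 2 counts), fell under the 20 counts of the naming rule and was named after its values were seen. All 24 counts of Gm13292 in replicate 1 and 5 of 6 in replicate 2 lay on models with more than 1 exon. Of the most abundant copies, Gm10123 and its parent had log2 ratios of 0.61 and 0.54, Rpl3-ps1 and Rpl3 0.82 and 0.66, and Gm15500 and Rpl5 0.75 and 0.70. The ratio of Vcp was -0.48, that of Cox7a2l 0.92 and that of Hmgb1 0.40. Under their own identifiers these 3 copies thus had ratios farther from 0 than their parents; with adjoining models counted, as described below, those of Gm6969 and Gm15387 were nearer to 0 than their parents' ratios and that of Vcp-rs was close to its parent's.

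**Figure D4:**
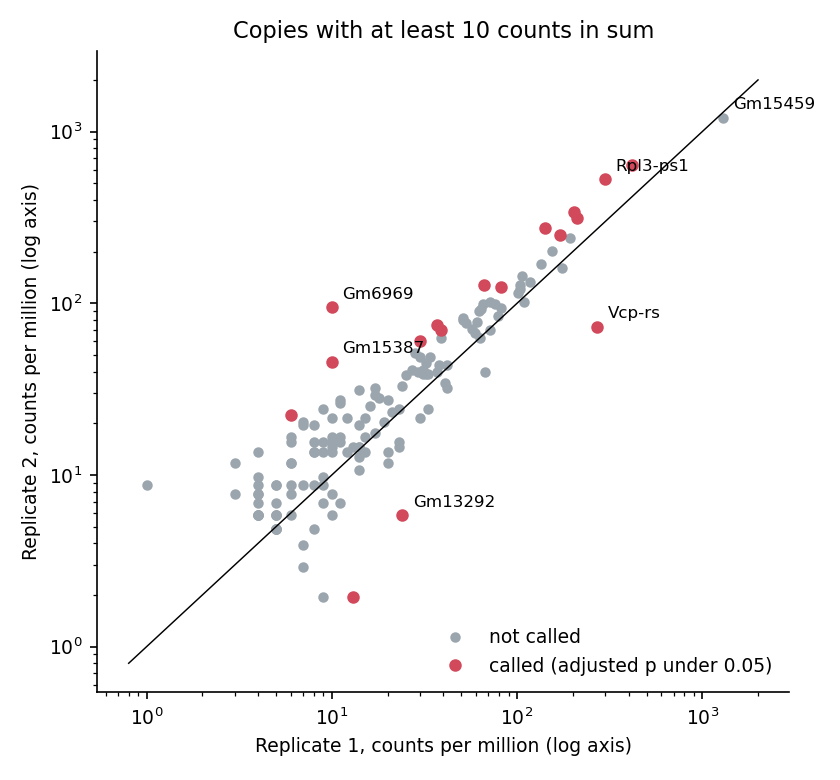
CPM in replicate 1 (horizontal, log axis) and replicate 2 (vertical, log axis) of the 149 members with at least 10 counts in sum; the line marks equal levels and red points are the 17 called members. Most points lie near or somewhat above the line, and Gm6969, Gm15387 and Vcp-rs lie farthest from it among the members with over 50 counts.

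For Gm6969 and Gm15387, the difference went with where the reads of the same place were filed. Beside each of these 3 copies lay a single-exon model on the same strand under another identifier, with counts in 1 library only. The model began at the 3′ boundary of the copy, ran downstream and shared 1 base with it. Gm6969 (chromosome 12, 24638669 to 24639010, - strand) was followed by an unannotated intergenic locus from 24638003 to 24638669 with 70 counts in replicate 1. Gm15387 (chromosome 15, 74093686 to 74094333, - strand) was followed by one from 74093182 to 74093686 with 29 counts in replicate 1. With these counts added, Gm6969 had 80 and 97 (0.24, adjusted Fisher's exact p = 0.624) and Gm15387 had 39 and 47 (0.23, adjusted Fisher's exact p = 0.807). The log2 ratio of Vcp-rs, counted in the same way, was -0.55 (adjusted Fisher's exact p = 0.00129), against -1.88 under its own identifier. With all such adjoining models counted, 16 members of 158 tested were called, and 9.70% of all genes. Of 58 members with an adjoining model that held counts, it lay on the 3′ side in 50.

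**Figure D5:**
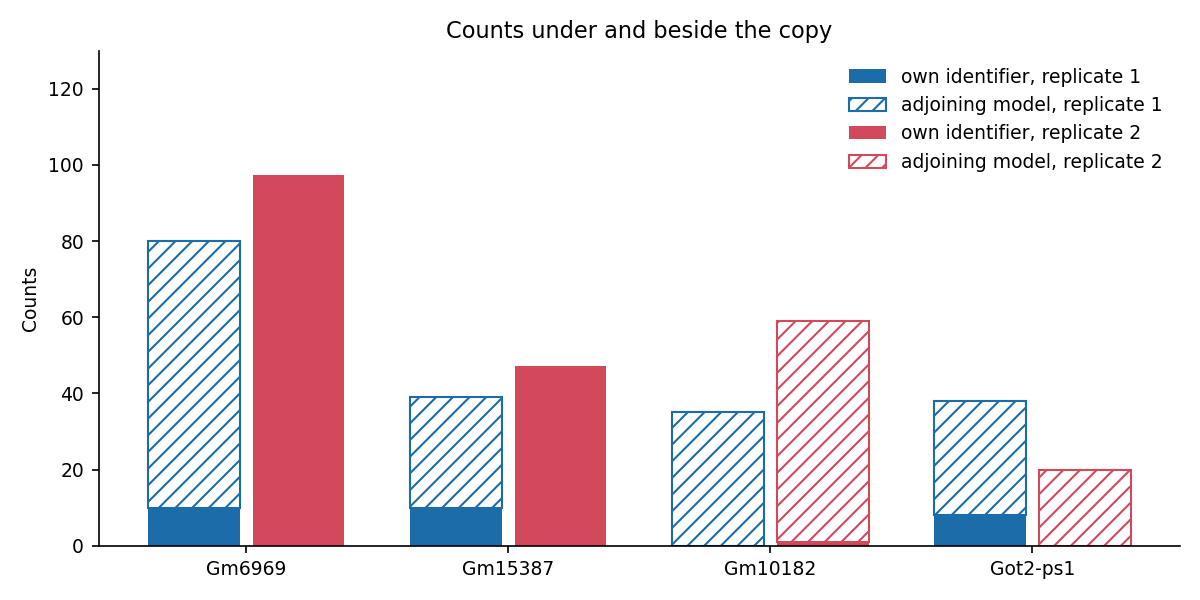
Counts (vertical axis) under the identifier of the copy (filled) and on single-exon same-strand models that adjoin it (hatched, stacked on top), in replicate 1 (blue) and replicate 2 (red), for 4 copies. The adjoining counts stand in replicate 1 only for Gm6969 (70) and Gm15387 (29), and in both libraries for Gm10182 (35 and 58) and Got2-ps1 (30 and 20).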

How the data were processed

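The authors deposited, per library, a table of raw counts of long reads per transcript model in TALON format, per the file headers, and an annotation file with exon positions on mm10, per the readme beside it. Which aligner and versions they used is not given in the sources. Counts were summed per gene over all transcript classes, and CPM used the annotated mouse gene counts of the library (93.7% and 93.3% of 1066347 and 1100253 counts); spike-ins and unannotated loci stayed out. All 10550 models of the class had the same exons in both files as in GENCODE M21. Location was taken against annotated genes other than pseudogenes and TEC genes. Parents came from blastn (BLAST 2.17.0, sense strand, e-value 1e-10) against M21 protein-coding transcripts; identity is over the aligned part. Members were also typed by RefSeq (GRCm38.p6). Exact tests and intervals used scipy 1.17.1 and R 4.3.3, with edgeR 4.0.16 and DESeq2 1.42.0 for other scalings and preset spreads. Of the tests, only Fisher's exact test was tried on simulated data first. With 1 group, no group test was possible. The members, gene lists and rules were chosen with earlier results of these data known. Genes were named by rank: the 15 highest members, the 3 highest per location, 5 multi-exon members, up to 5 called members per direction with at least 20 counts (not all are reported here), 5 parents by counts and 5 by members, 5 without a match and 5 of lowest identity. Others are said to be chosen after their values were seen, also Gm10182 and Got2-ps1. Adjoining models are single-exon models on the same strand within 100 bases of a member, an alternative chosen after seeing the data. Log2 ratios used a prior count of 0.5.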

Additional observations from a re-analysis of the deposited data

Results flagged for a closer look

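Single-exon models filed under another identifier, outside the gene counts of the copies, held at least as many counts as the copy itself in that library beside 7 of the copies reported here, each with at least 20 counts in all, and more than the 3 counts that a count of 0 allows. Beside Gm6969 there were 70 in replicate 1 (10 on the copy) and beside Gm15387 29 in replicate 1 (10 on the copy). Gm10182, a copy of the chromatin protein gene Hmgn2, had 0 and 1 counts of its own and 35 and 58 beside it in replicates 1 and 2. Got2-ps1, a copy of the mitochondrial aspartate aminotransferase gene, had 8 and 0 counts of its own and 30 and 20 beside it. Gm15725, a copy of Lrrc58, had 4 and 6 of its own and 4 and 11 beside it, and Mylf-ps 4 and 6 of its own and 8 beside it in replicate 2. Rab11b-ps2 had 7 and 20 of its own and 8 beside it in replicate 1.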

How the results depend on the processing

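The number of members depended on the count minimum: 300 of 600 had counts in both libraries, 212 at least 5 counts in sum and 149 at least 10, and the libraries alone gave 424 and 476. Their mean share of counts was 0.858%, 1.14% over Known transcripts only, and 0.763 to 0.954% by library. With at least 10 counts, 89 intergenic, 39 antisense, 16 intronic and 5 exonic members had them. With introns of either strand as one group, 43 antisense and 213 intronic members resulted, and with protein-coding hosts only 10 exonic ones. By library, antisense members ranged from 129 to 156 and intronic ones from 40 to 51. Calls between the libraries fell from 17 to 5 and 2 at preset coefficients of variation of 0.1 and 0.2, and were 14 to 17 under the other scalings, count minimums and transcript classes tried. Over the alternatives the adjusted exact p of Vcp-rs ranged from 2.49e-27 to 0.00986, that of Gm6969 from 8.57e-17 to 0.624 and that of Gm15387 from 3.06e-05 to 0.807; for the latter pair the highest came with adjoining models. No paired analysis was possible because there is 1 group. The A content behind the copies was not computed, since no genome sequence was used here.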
